A study of Rattus norvegicus with 6 samples.

Results

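The genes described here run the last stretch of the cell cycle, from the G2 phase through the separation of the chromosomes to the division of the cell. They were given as a list of 38 symbols and matched by symbol to the deposited table of 19289 rat features. A row was found for 37 of them, and Ccnb2, cyclin B2, was not analysed here. The 37 were measured in 6 libraries of polyadenylated RNA from INS-1E, a rat insulinoma line that secretes insulin and is used as a beta-cell model: 3 of untreated cultures and 3 after 24 hours of uric acid, the end product of purine breakdown in humans. All 6 libraries come from this 1 tumour-derived line, which divides in culture, so none of the values is from a resting islet. No concentration of uric acid and no vehicle are named in the labels. Whether replicates came from separate cultures is not said there either, so every p-value speaks of library-to-library spread alone, which may be technical. Levels are in FPKM, fragments scaled to transcript length and library depth, which makes them comparable between genes, and differences are log2 fold changes of uric acid against untreated from edgeR.

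Entry into mitosis is driven by the kinase CDK1 bound to cyclin A or cyclin B, and is sustained by the Polo and Aurora kinases. The spindle checkpoint then holds the cell until every kinetochore, the protein plate on the centromere, is attached to the spindle. Once it is satisfied, CDC20 activates the anaphase-promoting complex, a ubiquitin ligase that destroys securin and cyclin B and so releases separase to cut the chromosomes apart. Messenger RNAs of these genes are made mostly in G2 and M, through factors such as FOXM1, B-MYB with the MuvB complex, and NF-Y, so their level in a bulk sample depends partly on how many cells are in those phases. In these bulk libraries fewer cells in a phase and less RNA per cell cannot be told apart.

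Promoters of the list are shown because the members share a plan of short motifs that the list itself did not use. RefSeq promoter windows (build GRCr8, 250 bases before to 50 after the transcript start) were matched by symbol for 31 of the 38 genes, and Ccna2, Aurkb, Foxm1, Incenp, Ube2c, Tpx2 and Racgap1 had no entry. The NF-Y box was searched as CCAAT on both strands, and the cell cycle homology region (CHR), to which MuvB binds, as TTTGAA or TTTAAA on both strands. A hexamer and a box can share an end letter, which does not happen in the stretches printed here. A CHR hexamer was present in 29 of the 31 windows (93.5%), against 28.3% of all 33469 windows. It began within the last 100 bases before the start in 22 of the 31 (71%), against 10.1% of all. An NF-Y box was present in 24 (77.4% against 37.5%), and 17 had at least 2 of them (54.8% against 11.2%). Bub3 and Cdc25b were the 2 members without a searched CHR form in the window. These are matches of letters, not measured binding. The last 120 bases before the start follow for Espl1, which was lower with uric acid. They also follow for Ccnb1 and Cdk1 as the core of the mitotic engine. Cdc20 and Hmmr are examples from anaphase onset and the spindle. Bub3 is shown as a member without a searched CHR form, and its stretch holds an unmarked TTCGAA. Capitals mark the NF-Y boxes and the searched CHR forms.
Espl1, chr7:135302596-135302715, plus strand: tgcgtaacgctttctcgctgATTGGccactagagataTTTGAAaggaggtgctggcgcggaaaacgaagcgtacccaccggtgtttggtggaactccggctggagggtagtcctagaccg
Ccnb1, chr2:33655226-33655345, minus strand: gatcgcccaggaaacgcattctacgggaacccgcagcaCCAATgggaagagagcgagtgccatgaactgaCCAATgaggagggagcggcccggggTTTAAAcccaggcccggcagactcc
Cdk1, chr20:19265173-19265292, plus strand: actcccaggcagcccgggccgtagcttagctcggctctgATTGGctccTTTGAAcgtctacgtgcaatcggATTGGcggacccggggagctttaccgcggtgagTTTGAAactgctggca
Cdc20, chr5:137255800-137255919, minus strand: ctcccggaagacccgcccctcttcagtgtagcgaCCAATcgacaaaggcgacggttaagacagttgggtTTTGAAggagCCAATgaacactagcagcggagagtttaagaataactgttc
Hmmr, chr10:25665216-25665335, minus strand: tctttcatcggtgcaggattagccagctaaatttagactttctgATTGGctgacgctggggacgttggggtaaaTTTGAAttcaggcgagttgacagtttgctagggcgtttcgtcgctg
Bub3, chr1:195760412-195760531, plus strand: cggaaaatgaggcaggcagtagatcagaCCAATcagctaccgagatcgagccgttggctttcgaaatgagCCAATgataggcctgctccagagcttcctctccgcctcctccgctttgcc

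**Figure D1:**
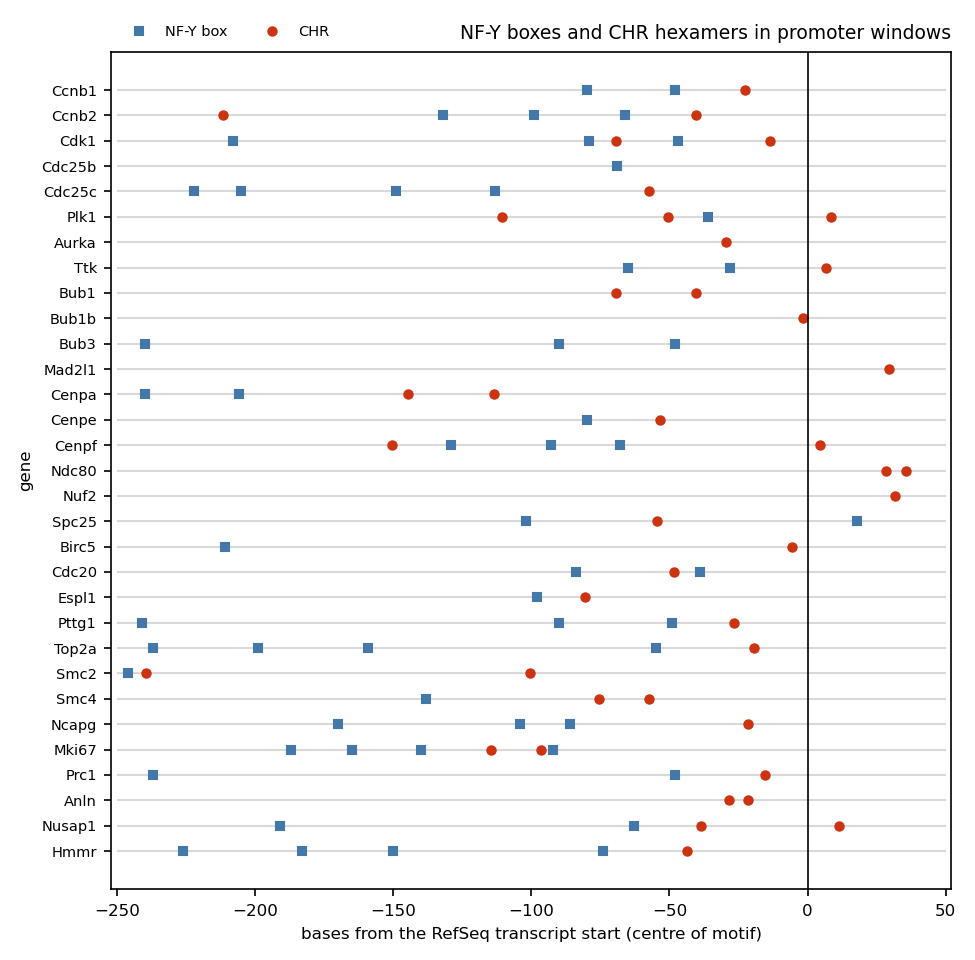
Positions of NF-Y boxes (blue squares) and CHR hexamers (red circles) in the promoter windows of 31 genes, with the distance in bases from the RefSeq transcript start on the horizontal axis and 1 gene per line. CHR hexamers gather in the last 100 bases before the start, in 22 of the 31 windows.

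Summed estimated counts ranged from 41191819 to 59092982 per library (from their values, a full pair of reads appears to add up to 4), and a member had between 539 and 19585 counts in a library. Beta-cell markers summed to 69750 to 83700 FPKM in the untreated and 68370 to 80890 FPKM in the uric acid libraries. Most of that sum was Ins1 and Ins2, at means of 49250 and 17870 FPKM, so it says little about the other markers. Among the beta-cell markers only Mafa, a transcription factor, was called. It fell from 389 ± 16.8 to 282 ± 29.5 FPKM (log2 fold change -0.46 ± 0.08, edgeR adjusted p = 0.0129). Of 7 markers of other islet cells 3 had a row, with sums of 6.01 to 10.5 and 8.06 to 11 FPKM. Sums were at most 2.04 FPKM for acinar, 3.64 for fibroblast, 0.38 for endothelial and 2.34 for immune markers. Of 6 duct markers 5 had a row, and these summed to 191 to 194 and 172 to 185 FPKM, nearly all of it Krt7, while Krt19 was at a mean of 0.0073 FPKM. Sox9, a duct and progenitor factor at a low level, fell from 1.83 ± 0.156 to 0.868 ± 0.12 FPKM (log2 fold change -1.07 ± 0.17, edgeR adjusted p = 0.00828). A short list of 14 ATF4 stress targets, chosen with earlier results of these data known, had 12 of 13 tested members higher and none lower. Of 9 tested housekeeping genes none was higher and 1, Actb, was lower, the only 1 at an unadjusted p under 0.05. Over all tested features 4.99% were higher and 2.99% lower, and 25.7% had an unadjusted p under 0.05.

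The mitotic genes differed little between the groups. Of the 37 members, all of which passed the filter of a mean of at least 1 FPKM, uric acid left none higher and 2 lower at an adjusted p under 0.05 (edgeR quasi-likelihood test, Benjamini-Hochberg over 12460 features). That is 5.41% of the members, where 7.98% of all tested features were called, 4.99% higher and 2.99% lower. The 2 were Incenp and Espl1. At an unadjusted p under 0.05, 7 members were higher and 3 lower, against 25.7% of all features, 13.7% higher and 12% lower. DESeq2 called 1 member higher (Cenpa) and 2 lower, where it called 14.2% of all features, 7.8% higher and 6.36% lower. Limma called none higher and 1 lower, where it called 6.59%, 4.28% higher and 2.31% lower. The median log2 fold change over the members was 0.05 and over all features 0.00127, and 24 of 37 members had a value above 0, against 50.2% of all features. The size of the log2 fold change was under 0.25 for 29 members, and for 68.9% of all features.

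The 95% intervals, taken gene by gene, limit the size of the differences between these libraries and speak of library-to-library spread alone. Members also had a smaller median SE than all features, 0.098 against 0.113. The 95% interval of the fold change lay inside 2-fold in either direction for all 37 members, against 91.2% of all features. It lay inside 1.5-fold for 33 of them (69.4% of all), the exceptions being Incenp, Ttk, Cenpa and Spc25. Leaving out any untreated library gave 1 lower member, leaving out uric acid library 1 gave 0, and leaving out its library 2 or 3 gave 2. The count of higher members was 1 without untreated library 3 (Pttg1) and 1 without uric acid library 3 (Bub1), and 0 without any of the other 4. Over these 6 fits 1.32% to 5.67% of all features were higher and 0.53% to 3.74% lower.

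**Figure D2:**
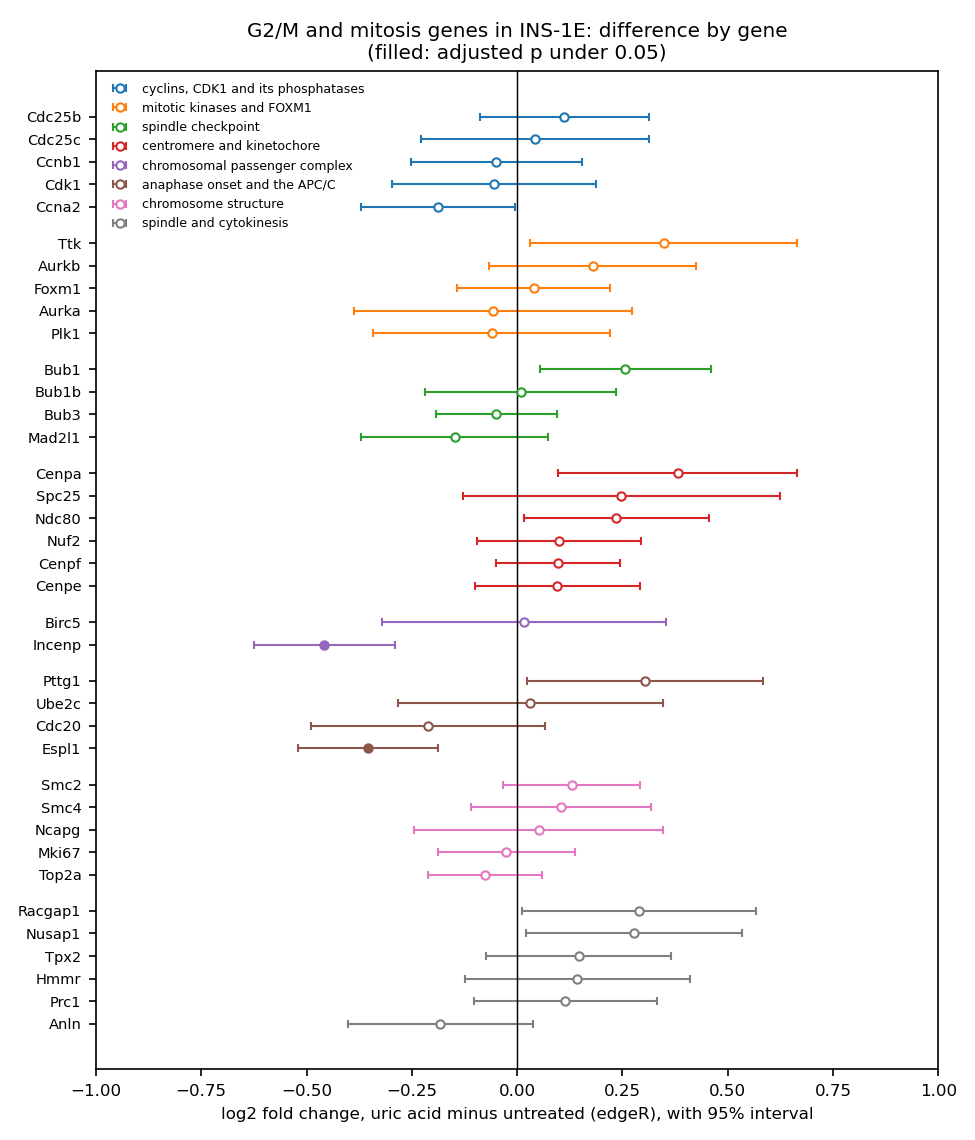
Log2 fold change of uric acid against untreated (points, horizontal axis) with its 95% interval (bars) for 37 genes, 1 per line, coloured and grouped by role. Filled points, Incenp and Espl1, passed an adjusted p of 0.05, and every interval lies between -1 and 1.

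Incenp, the scaffold that holds Aurora B kinase to the inner centromere, fell with uric acid. Its level was 24.7, 25 and 26.1 FPKM in untreated libraries 1, 2 and 3 and 18.5, 17 and 19.7 FPKM in uric acid libraries 1, 2 and 3. Every uric acid library lay below every untreated one. The mean was 25.3 ± 0.712 against 18.4 ± 1.34 FPKM (SD, n = 3 per group), a log2 fold change of -0.46 ± 0.07 (SE, edgeR adjusted p = 0.00831), so that the fitted level fell by 27.2%. The call was lost without uric acid library 1 (adjusted p = 0.0542), where the log2 fold change was -0.45. Incenp (ENSRNOG00000032929) lies on the minus strand of chromosome 1 from 225925773 to 225952516 in the deposited table, of unstated genome build, and overlaps no other listed feature.

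Birc5, or survivin, sits with INCENP in the chromosomal passenger complex, and its level was nearly the same in both groups. It stood at 32.4, 37.7 and 43.6 FPKM in the untreated and 36.3, 46.1 and 32.7 FPKM in the uric acid libraries, which overlap almost fully (log2 fold change 0.02 ± 0.15, adjusted p = 0.96). A short feature on the other strand overlaps Birc5, and reads of the 2 were not separated here. Aurkb, the kinase of the complex, had 20, 23.6 and 26.3 FPKM against 27.1, 28.1 and 24 FPKM, with a difference of 0.18 ± 0.11 (0.334). Cdca8, borealin, the remaining subunit and a gene outside the list that was looked up after the values of Incenp were seen, had 33.5 ± 2.25 and 36 ± 6.22 FPKM (0.10 ± 0.12, adjusted p = 0.634). Of these 4 subunits Incenp was the 1 that passed the threshold, and the difference between the subunits was not tested.

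Espl1, the protease separase that cuts cohesin at anaphase, also fell. Its level was 8.15, 7.55 and 7.89 FPKM in the untreated and 6.21, 5.86 and 6.41 FPKM in the uric acid libraries, again with no overlap. The mean went from 7.86 ± 0.301 to 6.16 ± 0.277 FPKM (SD, n = 3 per group) with a log2 fold change of -0.35 ± 0.07 (edgeR adjusted p = 0.0228), and the fitted level fell by 21.7%. This call was lost without untreated library 1 (0.0806), 2 (0.0814) or 3 (0.0715) and without uric acid library 1 (0.0948), and in limma on log2(FPKM + 1) (0.0585). The log2 fold change stayed between -0.39 and -0.31 in all 15 alternatives. Espl1 (ENSRNOG00000012835) lies on the plus strand of chromosome 7 from 143897014 to 143923868, build not given.

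Pttg1, securin, the inhibitor that holds separase until anaphase, lay on the other side of 0. It had 24.7, 24.4 and 32.8 FPKM in the untreated and 32.9, 34.9 and 33.4 FPKM in the uric acid libraries. Untreated library 3 stood just below the uric acid group, and the other untreated libraries were well below it. The difference was 0.30 ± 0.12 (adjusted p = 0.166), and it passed without untreated library 3 (0.47, adjusted p = 0.0342). Cdc20, the activator of the anaphase-promoting complex, had 44, 39.9 and 49.9 against 34.7, 45.4 and 35.5 FPKM (-0.21 ± 0.12, 0.317), with overlapping groups. Ube2c, the ubiquitin-conjugating enzyme of that complex, had 19.1, 20.4 and 24.5 against 19.8, 26.3 and 19.3 FPKM (0.03 ± 0.14, 0.915).

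None of the 5 measured cyclin, CDK1 and phosphatase genes passed the threshold, and their log2 fold changes ran from -0.19 to 0.11. Cdk1, the kinase itself, was the most abundant member, at 57.6, 66.1 and 70.6 FPKM in the untreated and 61.8, 70 and 55.3 FPKM in the uric acid libraries (-0.06 ± 0.11, adjusted p = 0.787). Ccnb1, cyclin B1, had 31.6, 28.2 and 30.4 against 28.1, 32.1 and 27.1 FPKM (-0.05 ± 0.09, 0.772). Both groups of each gene span the same range. Ccna2, cyclin A2, which acts in S phase as well as G2, had 27.7, 29.6 and 31.8 against 28.2, 25.2 and 25 FPKM (-0.19 ± 0.08, 0.186). Uric acid library 1 lay above the lowest untreated library for Ccna2, so the groups overlapped, and Exosc9 overlaps this gene on the other strand. The phosphatases that switch CDK1 on, Cdc25b and Cdc25c, had means of 31.5 and 4.02 FPKM in untreated cells and differences of 0.11 and 0.04.

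The mitotic kinases and the factor FOXM1 did not pass either, with differences from -0.06 to 0.35. Ttk, the MPS1 kinase that starts checkpoint signalling, had 4.66, 5.52 and 4.48 FPKM in the untreated and 5.54, 7.42 and 5.71 FPKM in the uric acid libraries. The groups came close without overlapping, untreated library 2 standing just below uric acid library 1, and the difference was 0.35 ± 0.14 (adjusted p = 0.161). Plk1, the Polo-like kinase, had 21.2, 21.8 and 26.7 against 19.7, 25.4 and 21.9 FPKM (-0.06 ± 0.12, 0.801), and Aurka, the centrosomal Aurora kinase, 12.2, 12.3 and 15.1 against 11.2, 15.5 and 11.4 FPKM (-0.06 ± 0.15, 0.844). In both genes untreated library 3 and uric acid library 2 were high and the rest were low. Foxm1 had 16.2, 17.4 and 18.6 against 18.3, 18.6 and 16.8 FPKM (0.04 ± 0.08, 0.802), a narrow band shared by both groups.

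Of the 4 spindle checkpoint genes Bub1, a kinase that recruits the checkpoint to kinetochores, had the value farthest from 0. It had 12.3, 12.4 and 12.9 FPKM in the untreated and 15, 16.7 and 13.3 FPKM in the uric acid libraries, with no overlap. The difference of 0.26 ± 0.09 missed the threshold (adjusted p = 0.115) and passed without uric acid library 3 (0.34, 0.0366). Bub1b, BUBR1, which inhibits CDC20, had 9.67, 10 and 11.2 against 9.57, 11.5 and 10 FPKM (0.01 ± 0.10). Bub3, which binds both, varied least of the 4, at 31.1, 31 and 31.6 against 31.2, 30.6 and 28.8 FPKM (-0.05 ± 0.06). Mad2l1, MAD2, which also inhibits CDC20, had 27.5, 33.2 and 31 against 30.2, 27.4 and 25.2 FPKM (-0.15 ± 0.10, 0.379).

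All 6 centromere and kinetochore genes had a value above 0, from 0.10 to 0.38, and none passed. Cenpa, the histone H3 variant that marks the centromere, had 4.39, 4.18 and 4.47 FPKM in the untreated and 5.11, 6.45 and 5.45 FPKM in the uric acid libraries. Its groups did not overlap, and the difference of 0.38 ± 0.13 had an adjusted p of 0.0993 in edgeR and passed with DESeq2 (0.38, adjusted p = 0.0466). Ndc80 and Nuf2, which pair in the complex that grips microtubules, differed by 0.24 ± 0.10 (0.169) and 0.10 ± 0.09 (0.506), and Spc25, another subunit of it, by 0.25 ± 0.17 (0.386). Spc25 had the widest spread inside a group, 13.5, 15.2 and 20.2 FPKM in untreated cells. Cenpe, a kinesin of the kinetochore, had means of 4.03 and 4.31 FPKM, and Cenpf 6.21 and 6.65 FPKM.

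The 5 chromosome structure genes had differences from -0.08 to 0.13, none of them at an unadjusted p under 0.05. Top2a, topoisomerase II alpha, which untangles sister chromatids, had 48.6, 48 and 48.8 FPKM in the untreated and 44.6, 47.7 and 45.5 FPKM in the uric acid libraries. The groups did not overlap, and the difference of -0.08 ± 0.06 did not pass (adjusted p = 0.456). Mki67, the Ki-67 antigen that coats mitotic chromosomes and serves as a marker of dividing cells, had 18.4, 17.2 and 15.9 against 17.4, 15.8 and 17.4 FPKM (-0.03 ± 0.07, 0.859). The condensin genes Smc2, Smc4 and Ncapg differed by 0.13 ± 0.07, 0.10 ± 0.09 and 0.05 ± 0.13.

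Of 6 spindle and cytokinesis genes 5 had values above 0, and none passed. Racgap1, a subunit of centralspindlin, which positions the cleavage furrow, had 23.9, 20.8 and 26.3 against 24.8, 33.1 and 29 FPKM (0.29 ± 0.12, adjusted p = 0.18). Nusap1, a microtubule-bundling protein, had 17.8, 19 and 20 against 21.5, 27.3 and 20.2 FPKM (0.28 ± 0.11, 0.167). The groups overlapped for Racgap1 and stood next to each other for Nusap1. Tpx2, which activates Aurora A on the spindle, differed by 0.15 ± 0.10, Hmmr, a spindle protein also known as a hyaluronan receptor, by 0.14 ± 0.12, and Prc1, which bundles the central spindle, by 0.11 ± 0.10. Anln, anillin, of the contractile ring, had 9.78, 9.7 and 10.3 against 8.6, 7.81 and 9.82 FPKM (-0.18 ± 0.10, 0.277).

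**Figure D3:**
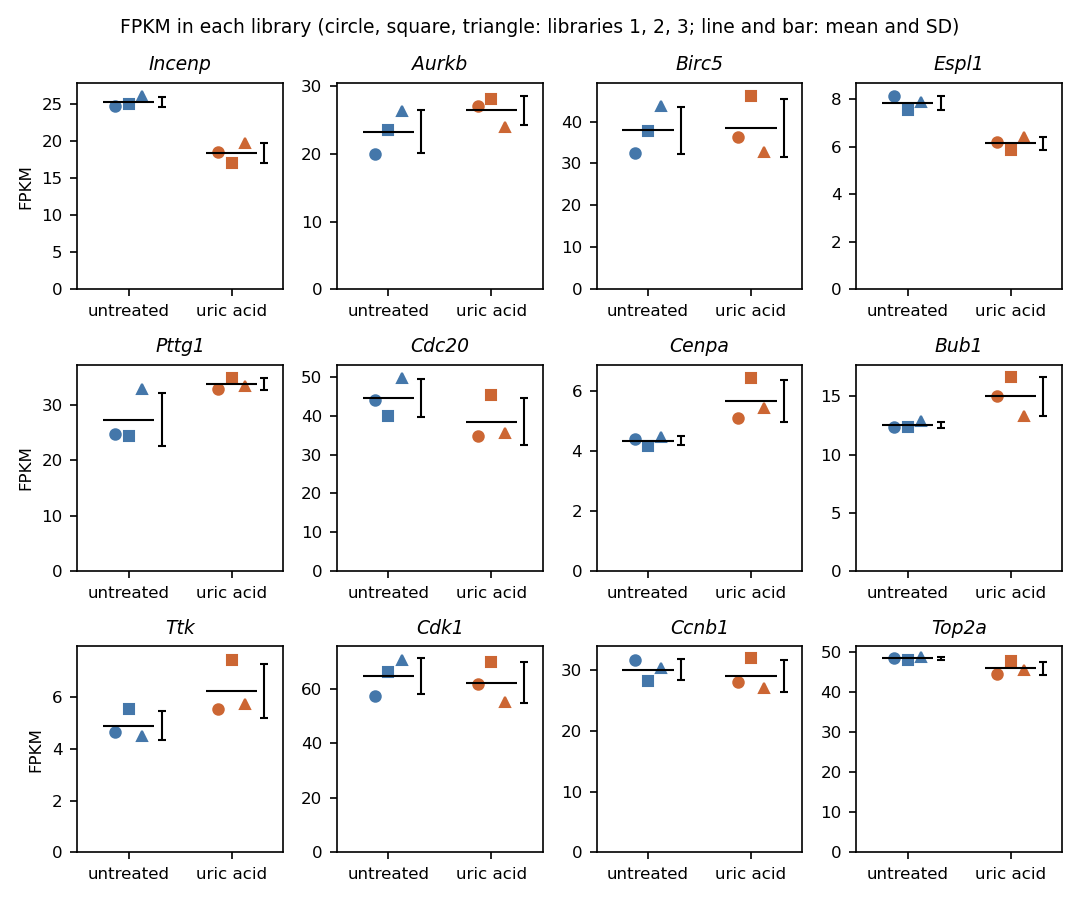
FPKM (vertical axes, from 0) of 12 genes in the 3 untreated (blue) and 3 uric acid (orange) libraries, with the mean (line) and SD (bar) of each group. Incenp, Espl1 and Top2a are lower in every uric acid library, and Pttg1, Cenpa, Bub1 and Ttk are higher in every one. Of these Incenp and Espl1 passed the threshold. Birc5, Cdk1 and Ccnb1 cover the same range in both groups.

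Groups of libraries did not overlap for 10 members, 7 higher and 3 lower (27% of the 37). Over all tested features 31% did not overlap, 16.8% higher and 14.2% lower. The 7 higher were Cenpa, Bub1, Ttk, Pttg1, Nusap1, Ndc80 and Cenpf, and the 3 lower were Incenp, Espl1 and Top2a. The share is close to that of the whole table, so the count is no result about the list.

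Much of the variation of these genes lay between libraries of 1 group. Untreated library 3 was the highest of its group for 27 of 37 members (73%), against 32.5% of all tested features, and uric acid library 2 for 24 of 37 (64.9%, against 38.3%). Both held for 21 members (56.8%), against 17.6% of all features, among them Aurka, Aurkb, Plk1, Birc5, Cdc20, Ube2c, Cdk1, Tpx2, Prc1, Hmmr and Nusap1. Averaged over the 37 members as log2 CPM (counts scaled to library size), untreated libraries 1, 2 and 3 stood at -0.05, -0.04 and 0.10 from the untreated mean, and uric acid libraries 1, 2 and 3 at 0.01, 0.16 and -0.02. Uric acid libraries 1 and 3 thus lay inside the untreated range, and uric acid library 2 lay above it. The value of uric acid library 2 was 0.28 for the mitotic kinases and FOXM1, 0.28 for spindle and cytokinesis genes and 0.01 for chromosome structure genes. Centromere and kinetochore genes stood at 0.15, 0.28 and 0.14 in uric acid libraries 1, 2 and 3, all above their highest untreated library (0.11). In no other role did every uric acid library lie outside the untreated range. Incenp and Espl1 ran the other way in the uric acid group alone, where library 2 was their lowest. That library was the lowest of its group for 7 members, Ncapg, Anln and Mki67 among them. Untreated library 3 was the highest of its group for Incenp and slightly above the group mean for Espl1. Untreated library 3 and uric acid library 2 also had the smallest total of their group (47858248 and 41191819 counts), its largest share of mitochondrial counts (8.24% and 9.1%) and its largest share of insulin counts (4.03% and 3.95%). The part of these in the pattern was not tested.

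**Figure D4:**
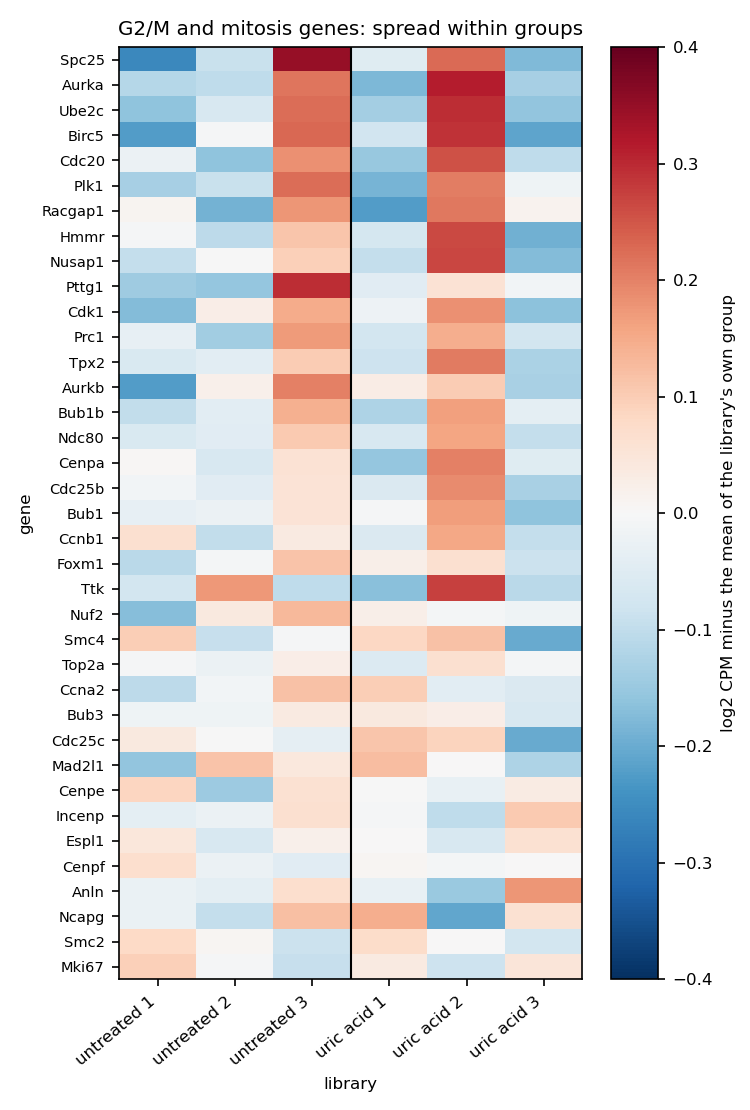
Deviation of each of 37 genes (rows) in each library (columns) from the mean of its own group, in log2 CPM (colour, red high and blue low), with genes sorted by the sum of untreated library 3 and uric acid library 2. Genes such as Spc25, Aurka, Ube2c and Birc5 at the top are high in those 2 libraries, and Mki67 and Smc2 at the bottom are not. Ncapg, also near the bottom, is high in untreated library 3 and low in uric acid library 2.

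Other genes of the same machinery were called at a share near that of the whole table, which is no result about them. Of 103 tested from a list of 108 other mitosis genes, 3 were higher and 3 lower (5.83% called, against 7.98% of all features), with a median of 0.10 and 71 values above 0. Knstrn, a kinetochore and spindle adapter, rose from 29.6 ± 2.48 to 42.8 ± 3.78 FPKM (0.53 ± 0.10, edgeR adjusted p = 0.0133), and Kif11, the kinesin that pushes spindle poles apart, from 16.7 ± 0.217 to 22.2 ± 2.87 FPKM (0.40 ± 0.09, 0.034). Cenpk, of the inner kinetochore, rose from 3.16 to 5.34 FPKM (0.75 ± 0.18, 0.0363), and overlaps Ppwd1. Ccnf, cyclin F, a ubiquitin ligase subunit of G2, fell from 12.9 ± 1.66 to 9.59 ± 0.318 FPKM (-0.43 ± 0.10, 0.0384), Fam83d, a spindle protein, fell by 0.38 (0.0403) and the condensin II subunit Ncaph2, which overlaps Tymp, fell by 0.24 on the log2 scale (0.0494). Wee1, which restrains CDK1, had 11.5 ± 0.509 and 15 ± 2.99 FPKM (0.38 ± 0.13, adjusted p = 0.117) and passed without uric acid library 3 (0.0114). Leaving out untreated library 1 or 2, or uric acid library 1, left no call. Leaving out untreated library 3 gave 2 higher and none lower, uric acid library 2 gave 2 and 1, and uric acid library 3 gave 10 and 1. Of these 6 fits Knstrn passed in 3, Kif11 in 2 and Cenpk in 1. Ccnf, Fam83d and Ncaph2 each passed in 0 of the 6, so the lower calls there were of other genes. DESeq2 called 12 higher and 6 lower, where it called 14.2% of all features.

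Subunits and partners of the anaphase-promoting complex gave no call among 18 tested in edgeR, where 7.98% of all features were called. At an unadjusted p under 0.05, 2 were higher and 3 lower, against 13.7% and 12% of all features. DESeq2 called 2 higher and 1 lower, where it called 14.2% of all features, and limma none, where it called 6.59%. Without uric acid library 3 edgeR called 2 higher, where it called 5.67% of all features higher. Of 16 genes of the DREAM and MuvB complexes, B-MYB and NF-Y, which are known to act at promoters of this kind, 1 was higher and 1 lower (12.5% called, against 7.98% of all features). Rbl2, the p130 pocket protein that turns DREAM into a repressor, rose from 4.87 ± 0.504 to 6.65 ± 0.118 FPKM (0.45 ± 0.10, adjusted p = 0.0256), a call kept in 2 of the 6 fits with 1 library left out. Nfya, the subunit of NF-Y that reads the CCAAT box, fell from 9.81 ± 1.09 to 6.97 ± 0.712 FPKM (-0.49 ± 0.11, 0.0285), kept in 1 of the 6. Neither was called without untreated library 1, 2 or 3 or without uric acid library 1. Mybl2, B-MYB, and Lin54, the MuvB subunit that reads the CHR, had differences of 0.21 ± 0.09 (0.185) and 0.28 ± 0.09 (0.0901).

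A list of genes linked to cell cycle arrest or p53 gave more calls. It was chosen with earlier results of these data known, so its share of calls is description and no test. Of 17 tested, 8 were higher and 1 lower (52.9% called, against 7.98%). Ccng2, an unconventional cyclin linked to cell cycle exit, rose from 5.81 ± 0.867 to 13.9 ± 1.47 FPKM (1.26 ± 0.14, edgeR adjusted p = 0.00135). Gadd45a, a stress protein that can inhibit CDK1 with cyclin B, rose by 0.87 ± 0.13 (0.00654), Ppm1d, a phosphatase of the DNA damage response, by 0.70 ± 0.08 (0.00213) and the antiproliferative gene Btg1 by 0.65 ± 0.08 (0.00301). Cdkn1b, the inhibitor p27, rose by 0.37 ± 0.08 (0.028), and Gtf2h1, a subunit of a transcription and repair factor, by 0.50 ± 0.11 (0.0273). The gene that fell was Ccng1, cyclin G1, a p53 target, named after its values were seen (-0.27 ± 0.07, adjusted p = 0.0403), and it passed in 1 of the 6 fits with a library left out. Chek1 was not analysed here. Cdkn1a, the p53 target p21, had 19.2 ± 1.55 and 17.1 ± 3.03 FPKM (-0.17 ± 0.13, 0.445). Leaving out 1 untreated library gave 4 to 5 higher, and leaving out uric acid library 1, 2 or 3 gave 4, 6 or 7. Ccng2, Gadd45a, Ppm1d and Btg1 passed in each of these 6 fits, and Cdkn1b and Gtf2h1 in 2 each.

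The G1/S and DNA replication genes, the neighbouring part of the cycle, gave 1 higher and 5 lower of 71 tested, with a median of -0.07. The share called was 8.45%, against 7.98% of all features, so the count is no result about the list. Ccnd3, cyclin D3, fell from 42.9 ± 1.66 to 30.9 ± 0.921 FPKM (-0.48 ± 0.07, edgeR adjusted p = 0.004). Dbf4, the activator of the replication kinase CDC7, was the gene that rose, from 4.85 ± 0.333 to 7.45 ± 0.829 FPKM (0.62 ± 0.13, 0.0221), and it overlaps Adam22 on the other strand. Fen1, a flap nuclease of replication, fell by 0.40 (0.0172), Rrm2, of ribonucleotide reductase, by 0.41 (0.0233), Cdc25a, a phosphatase that switches on CDK2, by 0.37 (0.0301) and Ccne1, cyclin E1, by 0.39 on the log2 scale (0.04). Of the 6 fits with a library left out, Ccnd3 passed in 6, Fen1 and Rrm2 in 3 each, Dbf4 in 2, Cdc25a in 1 and Ccne1 in 0. Mcm2, a subunit of the replicative helicase, had -0.25 ± 0.07 (0.0785), Pcna, the sliding clamp, -0.05 ± 0.09 (0.745) and Ccnd1, cyclin D1, -0.11 ± 0.21 (0.788). Lower calls numbered 4, 1 and 1 when untreated library 1, 2 or 3 was left out, and 1, 3 and 4 for the uric acid ones. Higher calls numbered 0 in the first 4 of these fits, 1 without uric acid library 2 and 4 without its library 3. The difference between the lists was not tested.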

How the data were processed

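RNA selected on poly(A) was made into dUTP libraries and read as pairs of 150 bases, per the labels' protocols. Tools listed in the submitters' processing notes, without roles, are HISAT2 2.0.4, StringTie 1.3.4d, cutadapt 1.9, edgeR and DESeq2. Genome build and strand use in counting: not given in the sources used here. Each library has FPKM values and estimated counts, both as the authors deposited them, per the file headers. Counts were tested as whole numbers in edgeR 4.0.16 under R 4.3.3, with TMM scaling, no covariate and a two-sided quasi-likelihood test, checked on simulated data. Features averaging under 1 FPKM were left out, which kept 12460 of 19289, and p-values were adjusted by Benjamini-Hochberg over all kept features. SE is the size of the log2 fold change over the root of F. Alternatives were limma 3.58.1 on log2(FPKM + 1) and log2(FPKM + 0.1), DESeq2 1.42.0, other scalings and filters, a replicate block, each library left out and, chosen after seeing the data, counts divided by 4. Every member was reported. From other lists, at most 6 called genes by smallest p and preset genes were named. The members and lists were chosen with earlier results of these data known. With 3 libraries a group, an exact permutation test cannot go below p = 0.1.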

Additional observations from a re-analysis of the deposited data

How the results depend on the processing

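With DESeq2, 972 features were higher and 793 lower, members 1 higher, other mitosis genes 12 higher and 6 lower, and G1/S genes 3 higher and 8 lower. Limma, with either pseudocount, called 1 member lower and 1 other mitosis gene lower. Other mitosis genes numbered 5 higher with library totals, with a mean FPKM of at least 5 and with counts divided by 4, and 0 lower with every feature above 0 FPKM. Leaving out 1 library gave 165 to 707 features higher and 66 to 466 lower. It gave 0 to 1 members higher and 0 to 2 lower, 0 to 10 other mitosis genes higher and 0 to 1 lower, and 0 to 4 G1/S genes higher and 1 to 4 lower. The cause was not tested. With a replicate block, 223 features were higher and 99 lower, with 1 member lower (Espl1 had an adjusted p of 0.0779), 1 other mitosis gene higher and 0 lower, and 0 G1/S genes higher and 2 lower. Deviations of log2 CPM from the mean of the library's own group correlated at 0.07, -0.05 and -0.19 between same-numbered libraries, over 12460 features. These values cannot show whether libraries with the same number shared a culture or day. Of differently numbered pairs, untreated library 3 with uric acid library 2 stood at 0.26 and untreated library 1 with uric acid library 3 at 0.18.

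Sign turned in fits without 1 library for genes near 0, none of them called. The log2 fold change then ranged from -0.13 to 0.0025 for Ccnb1, -0.15 to 0.026 for Cdk1, -0.010 to 0.14 for Cdc25c, -0.17 to 0.060 for Plk1, -0.23 to 0.058 for Aurka and -0.013 to 0.10 for Foxm1. It ranged from -0.078 to 0.082 for Bub1b, -0.14 to 0.14 for Birc5, -0.13 to 0.15 for Ube2c, -0.020 to 0.15 for Ncapg, -0.071 to 0.024 for Mki67 and -0.0011 to 0.24 for Hmmr. Outside the list it ranged from -0.053 to 0.18 for Cdca8, -0.23 to 0.069 for Ccnd1 and -0.15 to 0.0059 for Pcna.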

Other observations

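Ratios of partner genes within a library, chosen after the values above were seen and given without a test, put the lower members beside their partners. The FPKM ratio of Incenp to Aurkb was 1.24, 1.06 and 0.99 in the untreated group, by library number, against 0.681, 0.606 and 0.821 with uric acid. The ratio of Espl1, separase, to its inhibitor Pttg1 was 0.331, 0.309 and 0.241 against 0.189, 0.168 and 0.192. The groups of Espl1 and of Pttg1 were already separate in opposite directions, so the separation of their ratio adds nothing. The ratio of Incenp to Birc5 overlapped between groups, at 0.762, 0.663 and 0.598 against 0.509, 0.37 and 0.602. Ccnb1 to Cdk1 stood at 0.469 ± 0.0694 and 0.468 ± 0.0191 (SD, n = 3 per group), and the condensin pair Smc4 to Smc2 at 1.32 ± 0.0833 and 1.29 ± 0.109, each with overlapping groups.

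Ccnb2, which had no value here, has a promoter window with 3 NF-Y boxes and 2 CHR hexamers.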
